A study of Mus musculus with 4 samples.

Results

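Caspases are the cysteine proteases that cut proteins after aspartate residues in cells that die by apoptosis or pyroptosis. Transcripts of 6 caspase genes, *Casp1*, *Casp2*, *Casp4*, *Casp6*, *Casp8* and *Casp9*, were followed in tumor-infiltrating Tc1 and Tc9 cells. They were chosen by gene symbol and are 6 of the 1681 genes that the tables of all 4 libraries reach. Both groups were Thy1.1+ Pmel-1 CD8+ T cells on the C57BL/6 background, whose transgenic T cell receptor recognizes a melanocyte antigen. Tc1 cells were polarized with rhIL-2, and Tc9 cells with IL-4, TGF-β and an antibody that blocks IFN-γ. After polarization, cells of both groups were kept in medium with rhIL-2, to 5 days of culture in all. The cells were given i.v. to Thy1.2+ B6 mice with s.c. B16 melanomas that had grown for 10 days. They were sorted from the tumors 14 days later. In this model the mice of both groups also received cyclophosphamide before the transfer, and peptide-pulsed dendritic cells and rhIL-2 after it. RNA of several mice was pooled, so each group has 2 pooled libraries, how the mice were divided among the libraries is not stated, and p-values measure only the spread between these pools. The ages of the mice were not given.

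Apoptotic caspases work in steps. Initiators are activated on platforms: caspase-8 at death receptors such as Fas through the adaptor FADD, caspase-9 on the apoptosome that APAF1 forms once mitochondria release cytochrome c, and caspase-2 on the PIDDosome. Initiators then cut executioners, and caspase-6, counted among the executioners, cuts nuclear lamin A. Caspase-1 and caspase-4 (called caspase-11 in much of the mouse literature) belong to the inflammatory branch, where they cut the pore-forming protein gasdermin D, and caspase-1 also matures IL-1β and IL-18. In CD8+ T cells, caspase-8 is known both for ending responses through Fas and for keeping activated cells alive by restraining necroptosis. Caspases are made as inactive precursors, so a transcript level does not measure activity.

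Promoters of 3 of the 6 genes are shown here, the 250 bases before the RefSeq transcription start (GRCm38.p6, plus strand), with each CpG in capitals. *Casp6* is shown because it was the one gene of the 6 that passed the test, and *Casp1* and *Casp4* because they are neighbors on chromosome 9 with a nearly constant ratio across the libraries. The windows are chr3:129901165-129901414 for *Casp6*, chr9:5298267-5298516 for *Casp1* and chr9:5308599-5308848 for *Casp4*.
Casp6: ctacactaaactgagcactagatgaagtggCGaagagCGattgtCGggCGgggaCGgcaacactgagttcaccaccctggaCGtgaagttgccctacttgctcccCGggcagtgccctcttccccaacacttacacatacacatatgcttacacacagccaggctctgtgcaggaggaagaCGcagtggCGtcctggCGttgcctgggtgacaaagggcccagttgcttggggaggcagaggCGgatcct
Casp1: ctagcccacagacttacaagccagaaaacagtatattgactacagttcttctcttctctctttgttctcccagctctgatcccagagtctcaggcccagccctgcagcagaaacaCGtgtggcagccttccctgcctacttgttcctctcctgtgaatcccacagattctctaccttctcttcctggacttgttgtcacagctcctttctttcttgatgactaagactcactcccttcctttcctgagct
Casp4: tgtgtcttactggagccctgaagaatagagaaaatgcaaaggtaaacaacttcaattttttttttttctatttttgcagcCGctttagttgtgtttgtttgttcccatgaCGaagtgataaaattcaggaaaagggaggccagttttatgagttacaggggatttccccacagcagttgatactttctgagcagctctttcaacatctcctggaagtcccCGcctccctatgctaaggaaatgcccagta
The *Casp6* window holds 11 CpGs, the *Casp1* window 1 and the *Casp4* window 3. Those of *Casp9*, *Casp2* and *Casp8*, which are not shown, hold 25, 17 and 5. The median over all 32851 RefSeq promoter windows of that length is 6. A GC box (GGGCGG, either strand), which 32.7% of all windows hold, occurs 1 time before *Casp6*, at position -205 from the start, and not before *Casp1* or *Casp4*. Among the other members it occurs 1 time in the *Casp2* window, 4 times in the *Casp9* window and not in the *Casp8* window. The *Casp8* window, chr1:58802252-58802501, lies inside the span of the gene given below. The *Casp2* window, chr6:42264735-42264984, runs past the first base of its span, so neither is wholly upstream of its gene. The palindrome bound by STAT factors (TTCNNNGAA), present in 7.02% of all windows, was found in none of the 6 caspase windows. The same was true of TATAAA (12.4% of all windows) and the AP-1 site TGANTCA (6.75%), each searched on both strands. These are matches of letters in 1 window for each gene and no measure of binding.

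Depths were 31105615 to 31927162 counts in 3 libraries and 30822953 in Tc9 replicate 2, so 3 counts, taken as the smallest measurable level, correspond to 0.0940 to 0.0973 CPM (counts scaled to library size). The sorted cells carried CD8 T cell transcripts: 8 of 9 marker genes lay in the range of all 4 tables, and their summed level was 1934 and 1980 CPM in the Tc1 and 2034 and 2034 CPM in the Tc9 libraries. Of 12 myeloid markers, 4 were in that range, with a summed level of 7.23 and 7.10 CPM in Tc1 and 11.4 and 14.1 CPM in Tc9. Nearly all of it was *Cd68* (226 and 221 counts in Tc1, 358 and 439 in Tc9), while the defining markers *Cd14*, *C1qa* and *C1qb* had 1 count or none in every library. Among the myeloid markers that 3 tables reach, *Itgam* had 12 counts in Tc1 replicate 2, against 9 and 2 in Tc9, *Fcgr3* had 6 against 2 and 11, and *Csf1r*, *Adgre1* and *Lyz2* had at most 3 in any library. *Cd4* had 45 to 58 counts in the 4 libraries, and 3 of 4 B cell markers summed to 13 to 23 counts. The remaining B cell marker, *Cd79b*, was beyond the table of Tc1 replicate 1 and had 155 counts in the other Tc1 library, against 380 and 473 in Tc9, and its part in the differences given here was not tested. None of 6 melanocyte markers lay in the range of all 4 tables. In the replicate 2 libraries, *Pmel* had 70 counts in Tc1 and 117 in Tc9, and *Tyr* 6 and 13. *Mitf* had 6 counts in Tc1 replicate 2, against 7 and 5 in Tc9, and *Mlana*, *Tyrp1* and *Dct* were not listed in the complete table, that of Tc9 replicate 2. Of 5 fibroblast and endothelial markers 1 was in range, *Cdh5*, with 1 count or none. *Col1a1* had 2 counts in Tc1 replicate 2, against 3 and 5 in the Tc9 replicates, and *Col1a2* 3 against 0 and 1. In the replicate 2 libraries, *Pdgfrb* had 5 counts in Tc1 and 12 in Tc9, while *Pecam1* had 445 and 446. Bulk RNA cannot tell fewer cells of a type from less RNA per cell.

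Per gene length, *Casp8* was the most abundant of the 6 caspases in both groups and *Casp1* the least. Levels in FPKM (fragments relative to gene length and library size) were 44.7 ± 1.89 for *Casp8* (SD, n = 2), 18.0 ± 1.11 for *Casp2*, 8.63 ± 0.34 for *Casp6*, 5.52 ± 0.071 for *Casp4*, 2.02 ± 0.064 for *Casp9* and 1.32 ± 0.014 for *Casp1* in Tc1 cells. In Tc9 cells they were 48.0 ± 5.40 for *Casp8*, 24.8 ± 0.71 for *Casp6*, 21.8 ± 1.65 for *Casp2*, 4.17 ± 0.57 for *Casp4*, 2.45 ± 0.23 for *Casp9* and 1.01 ± 0.14 for *Casp1*. The order was the same in both groups except that *Casp6* stood below *Casp2* in Tc1 cells and above it in Tc9 cells. Within each group no neighbors in the order overlapped between libraries. In FPKM between the nearest libraries, the closest pairs were *Casp9* and *Casp1* in Tc1, 0.64 apart, and *Casp4* and *Casp9* in Tc9, 1.15 apart. Relative to level, *Casp6* and *Casp2* were closer in Tc9, with nearest libraries at 24.27 and 22.98 FPKM, 1.29 apart.

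**Figure D1:**
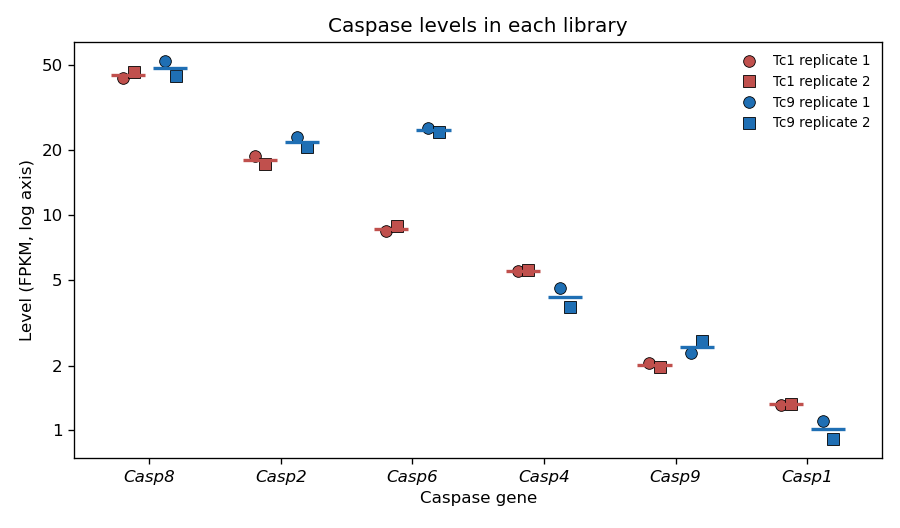
Level of each caspase gene in FPKM on a log axis, with 1 point for each library (red, Tc1; blue, Tc9; circles, replicate 1; squares, replicate 2) and a line at the mean of each group. *Casp6* is the gene whose groups lie farthest apart, at 8.39 and 8.87 FPKM in Tc1 against 25.27 and 24.27 FPKM in Tc9.

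The first question was whether caspase transcripts differed between Tc9 cells and Tc1 cells. Over the 1284 genes that passed a filter on low counts, all 6 members included, 17.4% were called higher and 16.7% lower in Tc9 cells, 34.1% in all, at an adjusted p-value under 0.05 in edgeR's quasi-likelihood test. Of the 6 caspases, 1 was called higher, *Casp6*, and 0 lower, and 2 had an unadjusted p under 0.05 in edgeR, *Casp6* and, with lower values in Tc9, *Casp4*, where 46.0% of all genes tested did. DESeq2 gave the same counts of 1 and 0, with 26.6% of all genes called in either direction. The median log2 fold change of the 6 was 0.15, beside 0.0014 for all genes tested, and 4 of 6 had a value above 0. Without Tc9 replicate 1 the median was 0.043, with 3 of 6 above 0. The CPM of the groups did not overlap in 5 of 6 caspases, 3 with Tc9 higher and 2 with Tc9 lower, where 70.4% of all genes tested did not overlap, 34.7% with Tc9 higher. Exact permutation over 2 against 2 libraries, two-sided, has 0.333 as its smallest p.

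The executioner *Casp6* (gene identifier 12368, chr3:129901415-129914112) rose 2.80-fold in Tc9 cells. It had 357 and 377 counts in Tc1 replicates 1 and 2, against 1049 and 999 counts in the Tc9 replicates. Both Tc9 libraries were high, both Tc1 libraries were low, and the groups were far apart relative to the spread within each. The log2 fold change was 1.48 (standard error, SE, 0.12, 95% interval 1.21 to 1.75, adjusted p = 1.99e-05 by edgeR). In size of fold change it ranked 80 of the 1284 genes, and 6.23% of them changed at least as much in either direction. Its replicates differed by 0.084 on the log2 scale in Tc1 and by 0.070 in Tc9, where the median gene differed by 0.075 and 0.22. Among the genes of the 4-library range that a library lists, its FPKM stood at percentile 54.7 and 55.5 in Tc1 and at 75.4 and 73.7 in Tc9. The authors listed 1 transcript for *Casp6*, with the same length of 1475 bases in all 4 libraries, so a change in the listed length does not enter its FPKM. Of the 5529 stretches of 31 bases in its GENCODE transcripts, 0.43% also occur in transcripts of another gene. Of the melanocyte markers given above, *Pmel* and *Tyr* had more counts in Tc9 replicate 2 than in Tc1 replicate 2 and *Mitf* did not, and their part in the *Casp6* difference was not tested.

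**Figure D2:**
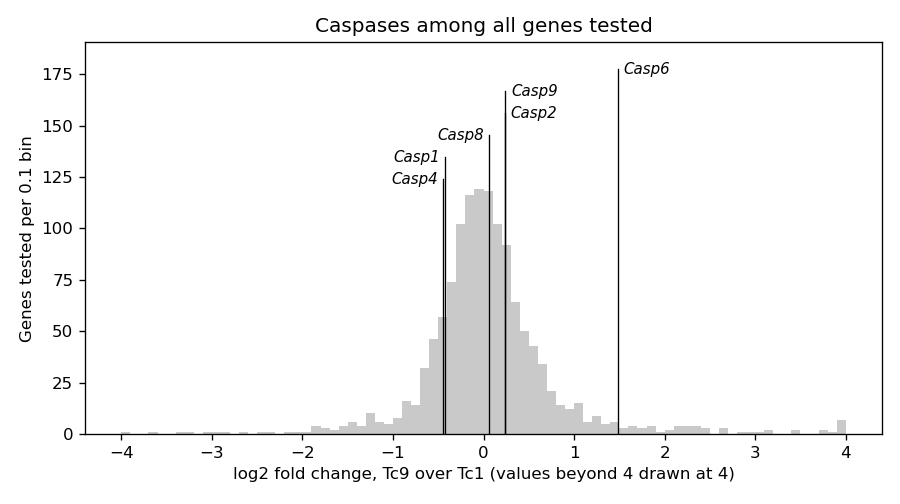
Histogram of the log2 fold change, Tc9 over Tc1, of the 1284 genes tested (horizontal axis; bins of 0.1; vertical axis, number of genes in a bin), with a black line at the value of each caspase. *Casp6* stands at 1.48, in the right tail, and the other 5 lie between -0.44 and 0.24, in the body of the distribution.

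Among the initiators, *Casp8* (12370, chr1:58795233-58847503) was the most abundant and showed no detectable difference. It had 3482 and 3688 counts in Tc1, against 4034 and 3432 in Tc9, where Tc9 replicate 1 was the highest and Tc9 replicate 2 the lowest of the 4, so the groups overlapped. The log2 fold change was 0.062 (95% interval -0.21 to 0.33, adjusted p = 0.716 by edgeR), an interval that leaves room for a fold between 0.866 and 1.26. With 1 Tc9 library left out, calls over all genes rose as well, to 424 higher and 430 lower of 1310 tested without Tc9 replicate 1 and 372 higher and 372 lower of 1310 without Tc9 replicate 2, so a call in these fits says little about a single gene. For *Casp8* the value ran from -0.061 (without Tc9 replicate 1) to 0.18 (without Tc9 replicate 2, adjusted p = 0.0109 in edgeR). The authors listed 5 transcripts for *Casp8*, 2 of them assembled by the authors, and its mean listed length ran from 2644 to 2663 bases over the libraries. Of its stretches of 31 bases in GENCODE, 8.64% also occur in another gene, mostly *Gm20257*, so its counts may hold some shared reads.

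*Casp9* (12371, chr4:141793612-141815978), the initiator of the mitochondrial route, had 246 and 237 counts in Tc1, against 267 and 303 in Tc9. Both Tc9 libraries lay above both Tc1 libraries, by little. The log2 fold change was 0.24 (95% interval -0.09 to 0.57, adjusted p = 0.224 by edgeR). It passed the threshold when Tc9 replicate 1 was left out (log2 fold change 0.33, adjusted p = 0.0241 in edgeR) and was 0.15 without Tc9 replicate 2 (adjusted p = 0.362 in edgeR). In the annotation *Casp9* overlaps *Cela2a* and *Ctrc* on the opposite strand, and neither gene was listed in the complete table.

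*Casp2* (12366, chr6:42264902-42282508), the initiator linked to DNA damage and to extra centrosomes, had 2040 and 1878 counts in Tc1, against 2435 and 2167 in Tc9. The Tc9 libraries were again both higher without overlap. The log2 fold change was 0.24 (95% interval -0.03 to 0.50, adjusted p = 0.146 by edgeR). Without Tc9 replicate 2 it was 0.32 (adjusted p = 2.37e-05 in edgeR), and without Tc9 replicate 1 it was 0.15 (adjusted p = 0.0641 in edgeR). Fits with 1 Tc9 library take the spread from the Tc1 libraries alone, which lay closer together than the Tc9 libraries did.

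The 2 inflammatory caspases had lower values in Tc9 libraries, and neither passed the test. *Casp4* (12363, chr9:5308849-5336791) had 227 and 231 counts in Tc1, against 185 and 151 in Tc9. The log2 fold change was -0.44 (SE 0.17, 95% interval -0.81 to -0.07), with an unadjusted p of 0.0239 and an adjusted p of 0.0638 in edgeR's quasi-likelihood test. Without Tc9 replicate 1 it was -0.60 and passed (adjusted p = 0.000632 in edgeR), and without Tc9 replicate 2 it was -0.30 (adjusted p = 0.0888 in edgeR). *Casp1* (12362, chr9:5298517-5307281) had 58 and 59 counts in Tc1, against 48 and 39 in Tc9. Exact Poisson intervals, which cover counting error only, were 44.0 to 75.0 and 44.9 to 76.1 counts for the Tc1 and 35.4 to 63.6 and 27.7 to 53.3 counts for the Tc9 libraries, and these overlap. The log2 fold change was -0.42 (95% interval -0.97 to 0.12, adjusted p = 0.203 by edgeR). It was -0.28 without Tc9 replicate 2 and -0.58 without Tc9 replicate 1. In limma it was -0.21 on log2(FPKM + 1), where the 1 added is about as large as the level of *Casp1*. On log2(FPKM + 0.1) it was -0.36. For both genes Tc9 replicate 2 was the lowest library and the Tc1 libraries were nearly equal. Macrophages and other myeloid cells are known for high levels of both genes. Of the myeloid markers given above, *Cd68* was higher in Tc9, *Itgam* had fewer counts there, *Fcgr3* was mixed and *Cd14*, *C1qa* and *C1qb* were at or near 0, and the part of myeloid cells in the *Casp1* and *Casp4* values was not tested.

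*Casp1* and *Casp4* lie in the same orientation, with 1567 bases between the end of *Casp1* and the start of *Casp4*. The ratio of *Casp1* to *Casp4* in FPKM was 0.239 and 0.239 in the Tc1 libraries, against 0.243 and 0.242 in the Tc9 libraries. Each was the other's nearest gene by the distance between the log2 CPM values of the 4 libraries, centered on each gene (distance 0.020), a value well below the counting error of *Casp1*. No stretch of 31 bases is shared between transcripts of any 2 of the 6 caspases.

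Ratios within a library do not depend on depth or on the scaling factor. The ratio of *Casp6* to *Casp2* was 0.446 and 0.514 in the Tc1 libraries, against 1.10 and 1.18 in the Tc9 libraries. That of *Casp8* to *Casp6* was 5.17 and 5.19 in Tc1 and 2.05 and 1.82 in Tc9. Both ratios were well apart between the groups. The ratio of *Casp8* to *Casp2*, without *Casp6*, was 2.31 and 2.67 in Tc1 and 2.25 and 2.14 in Tc9, lower in both Tc9 libraries by a narrow margin. As a share of the summed FPKM of the 6 caspases, *Casp6* made up 10.6% and 10.9% in the Tc1 libraries, against 23.4% and 25.2% in the Tc9 libraries. The sum itself was 79.4 and 81.1 FPKM in Tc1 and 108.0 and 96.3 FPKM in Tc9.

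**Figure D3:**
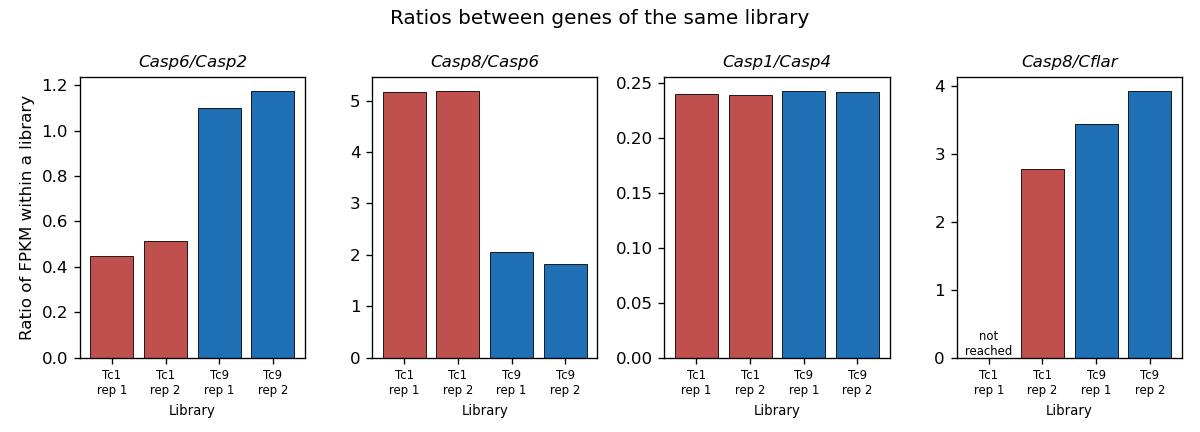
Ratio of FPKM between pairs of genes of the same library (vertical axes from 0; red bars, Tc1; blue bars, Tc9; 1 bar for each library). *Casp6/Casp2* is higher and *Casp8/Casp6* lower in both Tc9 libraries, *Casp1/Casp4* lies between 0.239 and 0.243 throughout, and *Casp8/Cflar* has no bar for Tc1 replicate 1, whose table does not reach *Cflar*.

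The second question was whether the partners of these caspases differed as well. Of 48 genes listed as adaptors, inhibitors and substrates, 8 lay in the range of all 4 tables and all 8 were tested. By edgeR's quasi-likelihood test 1 was called higher and 1 lower in Tc9 cells, beside 17.4% and 16.7% of all genes tested, and the median log2 fold change was -0.10. *Apaf1*, the scaffold of the apoptosome on which caspase-9 is activated, rose in Tc9 cells. It had 1682 and 1554 counts in Tc1, against 2197 and 2068 in Tc9 (log2 fold change 0.40, SE 0.11, adjusted p = 0.0219 by edgeR). Both Tc9 libraries lay above both Tc1 libraries. The ratio of *Casp9* to *Apaf1* in FPKM was 0.252 and 0.261 in Tc1 and 0.209 and 0.251 in Tc9.

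*Parp1*, a DNA repair enzyme that executioner caspases cut, fell in Tc9 cells. Its 5589 and 5623 counts in the Tc1 libraries compared with 4649 and 4153 in the Tc9 libraries, which did not overlap (log2 fold change -0.35, SE 0.11, adjusted p = 0.0363 by edgeR). The call was lost in 5 of 7 other settings that kept all libraries, where the log2 fold change was between -0.35 and -0.30. *Apaf1* and *Parp1* both missed the threshold when either Tc1 library was left out, with an adjusted p of 0.253 and 0.442 for *Apaf1* and of 0.371 and 0.461 for *Parp1* in edgeR, without Tc1 replicate 1 and 2. The log2 fold changes were then 0.45 and 0.35 for *Apaf1* and -0.36 and -0.33 for *Parp1*, close to those with all libraries. *Bid*, which caspase-8 cuts to link death receptors to mitochondria, had 748 and 817 counts in Tc1, against 732 and 724 in Tc9 (log2 fold change -0.10, adjusted p = 0.532 by edgeR), and its log2 fold change was -0.17 without Tc1 replicate 1 and -0.027 without Tc1 replicate 2.

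None of 5 inhibitor genes of the IAP family passed the test in edgeR or in DESeq2, and 1, *Birc5*, had an unadjusted p under 0.05 in edgeR, beside shares of 34.1%, 26.6% and 46.0% of all genes tested. *Xiap*, which binds and blocks caspase-9, had 2874 and 2546 counts in Tc1, against 3095 and 2625 in Tc9, and the groups overlapped (log2 fold change 0.081, adjusted p = 0.647 by edgeR). Its sign turned with the Tc9 library left out, from -0.044 without replicate 1 to 0.20 without replicate 2. *Birc5*, which encodes survivin, a protein of dividing cells, had 3102 and 3143 counts in Tc1, against 2567 and 2464 in Tc9 (log2 fold change -0.31, adjusted p = 0.0524 by edgeR). The log2 fold changes of the remaining IAP genes were -0.19 for *Birc2*, -0.10 for *Birc3* and 0.20 for *Birc6*. Those of *Birc2* and *Birc3* were -0.36 and -0.19 without Tc9 replicate 1, and -0.026 and -0.017 without Tc9 replicate 2. Without Tc9 replicate 1, *Birc2*, *Birc3* and *Birc5* were called lower and *Birc6* higher, and without Tc9 replicate 2, *Birc5* was called lower and *Xiap* and *Birc6* higher, in the fits with many calls over all genes given above.

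**Figure D4:**
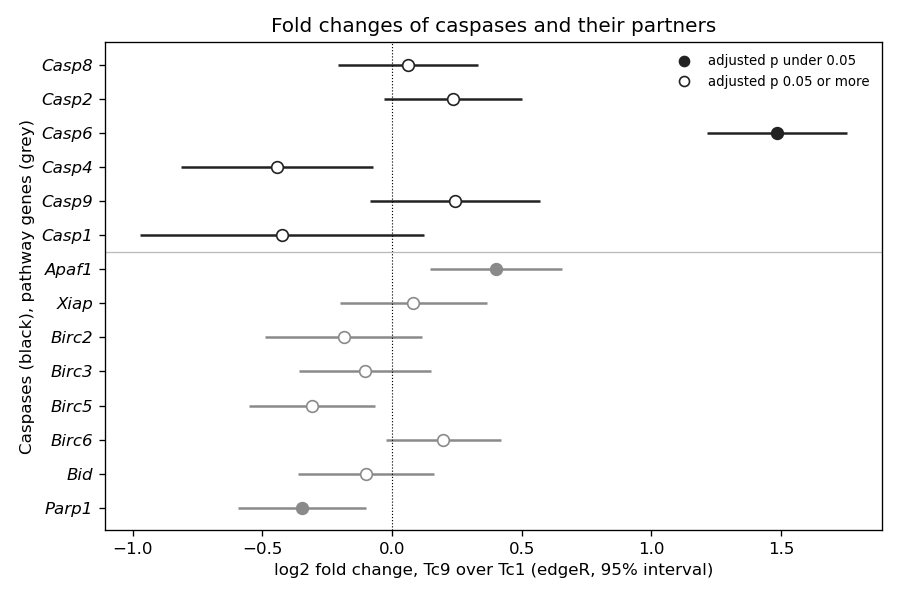
Log2 fold change, Tc9 over Tc1 (horizontal axis), with its 95% interval from edgeR for the 6 caspases (black) and the 8 pathway genes tested (grey). Filled points had an adjusted p under 0.05: *Casp6* at 1.48, *Apaf1* at 0.40 and *Parp1* at -0.35.

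For 22 further pathway genes the tables of Tc1 replicate 2 and of 1 or 2 Tc9 libraries could be compared, which leaves the Tc1 group without a replicate and the values without a p. Ratios are of scaled counts with 2 counts added, and their exact binomial (Clopper-Pearson) 95% intervals compare single libraries and cover counting error only. In Tc9 replicate 2 against Tc1 replicate 2, 10 of the 18 genes with over 3 counts were higher in Tc9, beside 53.2% of all 4925 genes outside the 4-library range with at least 10 counts in either library. *Cflar* encodes c-FLIP, the inhibitor and partner of caspase-8. It had 2570 counts in Tc1 replicate 2, against 2293 and 1638 in the Tc9 replicates. Its log2 ratio to the Tc1 library was -0.16 (95% interval -0.25 to -0.08) for Tc9 replicate 1 and -0.65 (95% interval -0.74 to -0.56) for Tc9 replicate 2. The ratio of *Casp8* to *Cflar* in FPKM was 2.77 in Tc1 replicate 2, against 3.44 and 3.93 in Tc9 replicates 1 and 2.

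*Fas*, the death receptor itself, had 379 counts in Tc1 replicate 2, against 328 and 281 in the Tc9 replicates. *Fadd* had 445 counts in Tc1 replicate 2, against 447 and 536 in the Tc9 replicates. The log2 ratio of this adaptor to the Tc1 library was 0.27 (95% interval 0.085 to 0.45) in Tc9 replicate 2 and 0.007 (95% interval -0.19 to 0.20) in Tc9 replicate 1, 2 intervals that overlap. The next 4 genes were reached by the replicate 2 libraries alone. *Tnfrsf10b*, the mouse TRAIL receptor, had 643 counts in Tc1 and 985 in Tc9, and *Tnfrsf1a*, a TNF receptor, 391 and 488. *Ripk1*, a kinase that caspase-8 cuts, had 4477 and 4857 counts, and *Traf2* 1818 and 1465.

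*Cycs*, which encodes cytochrome c, had 7182 counts in Tc1 replicate 2, against 5679 and 3912 in the Tc9 replicates, lower in both Tc9 libraries. *Cradd*, the adaptor that recruits caspase-2 to the PIDDosome, had 145 counts in the Tc1 library and 256 and 263 in the Tc9 libraries, log2 ratios of 0.81 (95% interval 0.52 to 1.12) and 0.85 (95% interval 0.56 to 1.16). Both ratios rest on the same single Tc1 library, and the spread between replicates exceeded counting error in both groups.

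Among the substrates, *Lmna*, the lamin that caspase-6 cuts, had 930 counts in Tc1 replicate 2, against 453 and 666 in the Tc9 replicates. *Lmnb1*, the B-type lamin, had 6458 counts against 5419 and 4683. Both lamins were thus lower in both Tc9 libraries, with log2 ratios of -1.03 and -0.48 for *Lmna* and of -0.25 and -0.46 for *Lmnb1*. *Dffa*, the inhibitor of the apoptotic DNase, had 974 counts against 1022 and 1169, and *Dffb*, the DNase, 424 against 398 and 358. *Gas2*, a cytoskeletal substrate, had 450 counts against 373 and 361. *Rock1*, *Pak2* and *Sptan1*, substrates tied to the cytoskeleton and reached by the replicate 2 libraries, had log2 ratios of 0.14, 0.13 and 0.32.

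The cytokine substrates that caspase-1 matures were near the limit of detection. *Il1b* had 1 count in Tc1 replicate 2 and 0 in both Tc9 libraries, and *Il18* had 3 counts and then 0 and 1. *Il1a*, whose product is not matured by caspase-1 in the way IL-1β is, had 6 counts in Tc1 replicate 2, against 76 and 68 in the Tc9 replicates, log2 ratios of 3.29 (95% interval 2.48 to 5.15) and 3.13 (95% interval 2.31 to 5.00). On the log2(FPKM + 1) scale the differences for *Il1a* were 1.08 and 1.0, at levels of 0.10 FPKM in the Tc1 library and 1.33 and 1.20 FPKM in the Tc9 libraries. The sensors *Nlrp3* and *Nlrp1a* had 3 and 0 counts in Tc1, against 2 and 3 in Tc9 replicate 2, so no difference in them was detectable at this depth.

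By the same distance over 4 libraries, the gene nearest to *Casp6* was *Acvr2a*, an activin receptor, with 242 and 264 counts in Tc1, against 806 and 701 in Tc9 (distance 0.13, log2 fold change 1.58, adjusted p = 2.81e-05 by edgeR). The nearest to *Casp8* was *Ube3c* (distance 0.034), to *Casp9* *H6pd* (0.028) and to *Casp2* *Cacnb4* (0.014), which had 14 to 18 counts in each library. With 4 libraries such distances describe these profiles only.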

How the data were processed

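Gene tables of 4 libraries of tumor-infiltrating Tc1 and Tc9 cells were used. The deposited expected counts, given by gene and not normalized, come from the authors, and of these 16.1% were not whole. The authors also deposited FPKM values, scaled by effective gene length and library size. Per the submitters' processing notes the build was mm10, and the aligner and counting program are not given in the sources used here. The tables list no gene at 0 and stop at different gene identifiers, so genes unlisted within a table's range were taken as 0, and 1 incomplete last row was dropped. Depth was the total of the complete table (Tc9 replicate 2) times the median ratio of count to FPKM over genes whose listed length was equal and that had 500 counts or more. Rounded counts were tested with edgeR 4.0.16 in R 4.3.3 (TMM, filterByExpr at a minimum count of 10). The test was quasi-likelihood and two-sided, with no block and with Benjamini-Hochberg adjustment over all genes tested. The fit was also run on simulated counts with the same spread in both groups and changes larger than those of *Apaf1* and *Parp1*. That run does not bear on calls of their size. limma 3.58.1 and DESeq2 1.42.0 were alternatives. The chi-square per gene between replicates was 4.40 in Tc1 and 40.8 in Tc9, beyond sampling noise, and were kept as separate libraries. Positions and promoter sequences come from RefSeq (GRCm38.p6, all 6 members matched), and GENCODE M21 gave overlaps. The genes named are the members, the pathway genes reached by the tables and the gene nearest to each member. Members and lists were chosen with earlier results of these data known. Other caspase genes of the tables, planned as a list of their own, are not reported here.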

Additional observations from a re-analysis of the deposited data

How the results depend on the processing

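Changing the filter, the scaling, the test or the scale, or adding the replicate block, left 1 caspase higher (*Casp6*) and 0 lower in each of 7 settings, and the log2 fold change of *Casp6* ran from 1.42 to 1.52. For pathway genes the number lower was 0 with no filter, with library sizes alone, with limma on log2(FPKM + 1) and on log2(FPKM + 0.1) and with the replicate block, where *Parp1* missed the threshold, and the cause was not tested. With 1 library left out, between 1 and 3 caspases were higher and between 0 and 1 lower, and between 0 and 3 pathway genes were higher and between 0 and 4 lower. The log2 fold changes then ran from -0.58 to -0.28 for *Casp1*, from 0.15 to 0.32 for *Casp2*, from -0.60 to -0.30 for *Casp4*, from -0.061 to 0.18 for *Casp8*, from 0.15 to 0.33 for *Casp9* and from 1.44 to 1.53 for *Casp6*. *Xiap* ran from -0.044 without Tc9 replicate 1 to 0.20 without Tc9 replicate 2. In these fits the lone library is assumed to vary like the other group, and the genes called over the whole range ran from 99 to 424 higher and 74 to 430 lower, with 224 and 214 in all 4 libraries. With no filter 156 were higher and 139 lower. The replicate numbers come from the labels, and same-numbered libraries deviated from their group means with a correlation of -0.09, so they were not treated as pairs; the block gave 231 higher and 213 lower. On the log2(FPKM + 1) scale the same number of pathway genes outside the 4-library range, 10, was higher. Among the 6 caspases, depth limits *Casp1* most, at 39 to 59 counts.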

Other observations

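Some genes of the caspase pathway were reached by the table of Tc9 replicate 2 alone, so their levels stand without a comparison. Of the machinery of the inflammatory branch, the adaptor *Pycard* (ASC) had 739 counts (22.72 FPKM), the DNA sensor *Aim2* 761 counts (10.37 FPKM), the kinase *Nek7*, a partner of NLRP3, 3810 counts (29.57 FPKM) and *Gsdmd*, which encodes gasdermin D, 461 counts (7.82 FPKM). The sensors *Nlrc4* and *Nlrp1b* had 2 and 5 counts, and *Gsdme* had 22. *Pidd1*, the core of the PIDDosome, had 2526 counts (11.19 FPKM), and the adaptor *Tradd* 297 counts (7.74 FPKM). *Diablo* and *Htra2*, mitochondrial proteins that relieve the inhibition by IAPs, had 862 and 1095 counts, *Aifm1* had 1114, and *Nol3*, a caspase inhibitor best known from muscle and heart, had 9. *Acin1*, *Panx1* and *Xkr8*, which encode substrates cut during nuclear condensation, dye uptake and exposure of phosphatidylserine, had 14335, 2144 and 92 counts, and *Il33* had 2.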
